A study of Mus musculus with 3 samples.

Results

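Histone H3 trimethylated at lysine 4 (H3K4me3) is deposited around the start sites of genes, mainly by the SET1 and MLL methyltransferases, and acetylation of lysine 27 on the same histone (H3K27ac), written by p300 and CBP, marks active promoters and enhancers. The pair usually occurs together where genes are transcribed, whereas H3K4me3 without acetylation is known from promoters that are silent, held in check by Polycomb proteins or only weakly used. The regions described here, in leukaemic mouse B-cell precursors, are H3K4me3 peaks that scored well in the authors' peak list and that shared no base with any called H3K27ac peak. They numbered 424, out of 18142 H3K4me3 peaks in all and 12085 with a score of 500 or more. Each was chosen by its H3K4me3 score, 500 or higher, and by sharing 0 bp with the H3K27ac list, so score and overlap are given as descriptions of the selection.

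The chromatin came from cultured pre-B-cell acute lymphoblastic leukaemia cells of the mouse, driven by Bcr-Abl, a fusion that encodes a constantly active tyrosine kinase, and grown without stimulation or treatment. The series had 3 chromatin immunoprecipitation samples, 1 with an antibody to H3K27ac, 1 with an antibody to H3K4me3 and 1 with control IgG. A peak list existed for each mark, and the IgG sample was not analysed here. There was 1 library per mark, sequencing depth is unknown, and the 95% intervals below reflect only the counting of peaks, taken one by one, and no replicate error. The H3K4me3 sample sets the members' own properties and the H3K27ac sample their surroundings. "Unacetylated" here means that no H3K27ac peak was called on the region; weaker acetylation cannot be told apart from none. All positions are on build mm9, counted from 1, and no genes are named, because no mm9 annotation was used here.

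Well-scored H3K4me3 was rarely without an H3K27ac peak. Of H3K4me3 peaks scoring 500 or more, 3.51% were unacetylated, against 34.7% of the 6057 peaks scoring below 500 and 13.9% of all H3K4me3 peaks. The unacetylated share was lower in each higher score class. It was 22.9% (95% interval 18.4 to 27.9%) for scores of 500 to 600, 17.8% for 600 to 800, 17.0% for 800 to 1000, 14.5% for 1000 to 1500, 11.9% for 1500 to 2000 and 5.52% (3.94 to 7.50%) for 2000 to 3100. At 3100 and above, where the scores of most strong peaks are tied and which is called the ceiling here, it was 0.154% (0.0840 to 0.258%), or 14 of 9117 peaks. The members therefore had lower scores than the acetylated peaks above the same limit, with a median of 953 (interval 884 to 1053) and 225 of the 424 between 500 and 1000. At or above the ceiling were 14 of the 424 members (3.30%) and 9103 of the 11661 acetylated peaks (78.1%).

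In base pairs, the members closest to the overlap limit were as follows, given as a description of the selection. The member nearest to an H3K27ac peak lay 138 bp from it, and the acetylated peak of 500 or more with the least overlap shared 244 bp. Among the 11661 acetylated peaks the median share of the width that lay under H3K27ac was 91.5%, and in none was it below 10% (the lowest was 18.0%). The 5 acetylated peaks with the smallest overlap shared 244 to 353 bp and were themselves only 342 to 431 bp wide, on chromosomes 8, 15, 7, 13 and 19. At the score limit the values ran on without a gap. The 5 lowest-scoring members had scores of 500.55 to 505.26, and the 5 unacetylated peaks just under the limit had scores of 491.40 to 498.54. The lowest-scoring member was 1236 bp wide on chromosome 2 (12932293 to 12933528), and the best-scoring peak just outside was 1284 bp wide on chromosome 4 (135241600 to 135242883).

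Membership depended on weak H3K27ac peaks. Of the acetylated H3K4me3 peaks of 500 or more, 242 were overlapped only by H3K27ac peaks scoring below 100, and without such H3K27ac peaks the unacetylated class held 666 peaks in place of 424. With the H3K27ac list shortened to the 18142 best-scoring peaks, the length of the H3K4me3 list, the class held 1375. The number of members is thus tied to how deep the H3K27ac list reaches.

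The members were narrower than the acetylated peaks of 500 or more, but wider than the unacetylated peaks below 500. Their median width was 1373 bp (interval 1328 to 1419 bp, quartiles 1178 and 1618 bp), and 346 of the 424 (81.6%) measured 1000 to 2000 bp. The median was 692 bp (677 to 706 bp) in the unacetylated peaks below 500. In the acetylated peaks of 500 or more it was 2332 bp (2314 to 2352 bp). Only 36 members were 2000 bp or wider and none reached 4000 bp, while 1056 of the 11661 acetylated peaks (9.06%) did. Much of that contrast went with score. Restricted to scores from 500 up to the ceiling, the median widths were 1362 bp (1317 to 1400 bp) in 410 unacetylated peaks and 1575 bp (1554 to 1597 bp) in 2558 acetylated peaks, and 0.508% of these acetylated peaks reached 4000 bp. A wider peak also has more chance of touching H3K27ac, so width is not independent of the selection.

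Within narrow score classes the unacetylated peaks had the lower median width throughout, by margins that differed. At 500 to 600 the medians were 1156 bp (1053 to 1236 bp) for unacetylated and 1303 bp (1237 to 1371 bp) for acetylated peaks, and at 1000 to 1500 they were 1440 bp (1352 to 1517 bp) and 1592 bp (1549 to 1654 bp). The intervals did not overlap in these classes, nor in those of 600 to 800 and 800 to 1000. They did overlap at 1500 to 2000 and at 2000 to 3100, where the medians were 1709 bp for unacetylated and 1749 bp for acetylated peaks. At the ceiling the medians were 1777 bp (1464 to 3041 bp) in 14 unacetylated and 2539 bp (2521 to 2560 bp) in 9103 acetylated peaks. Width increased with score in both kinds below the ceiling, with a Spearman correlation across peaks of 0.49 over 410 unacetylated and 0.33 over 2558 acetylated peaks of the same library.

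**Figure D1:**
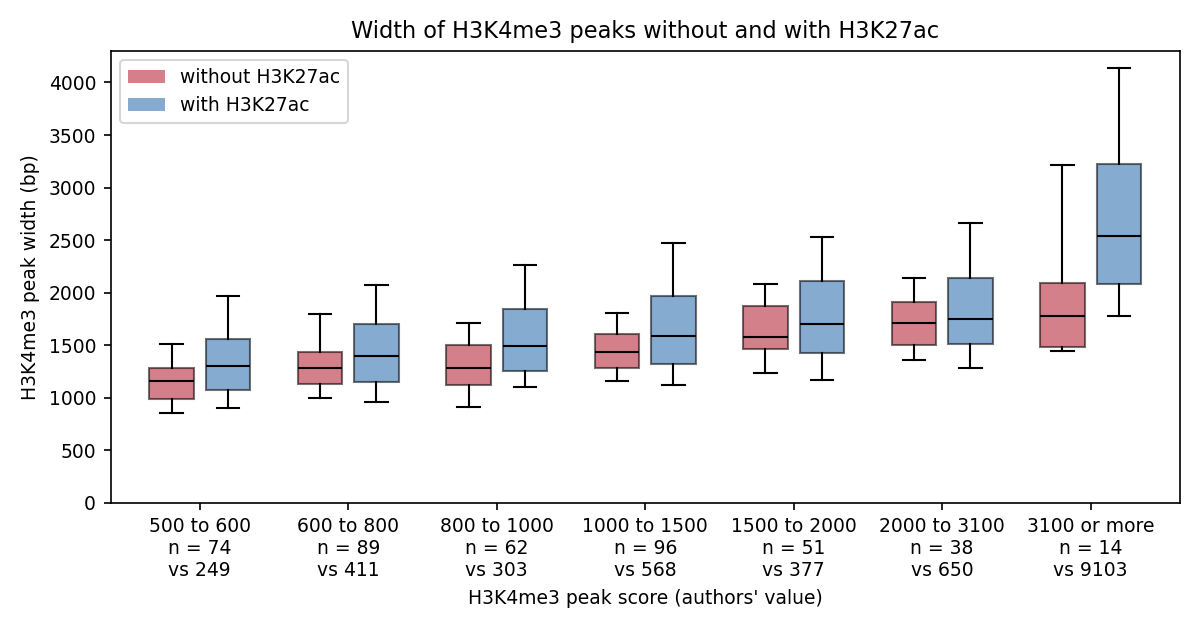
Width in bp of H3K4me3 peaks without H3K27ac (red, left of each pair) and with H3K27ac (blue) in 7 score classes. Boxes span the quartiles with the median as a line and whiskers reach the 10th and 90th percentiles; the medians are 1156 and 1303 bp in the lowest class and 1777 and 2539 bp at the ceiling.

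The 10 widest members ranged from 2486 to 3833 bp. The widest, 3833 bp on chromosome 13 (78337044 to 78340876), scored 3100 and ended 146 bp from another H3K4me3 peak, which scored 2362 and did carry H3K27ac. The second, 3704 bp on chromosome 1 (74838007 to 74841710), had a score of only 1196 and lay 4.88 kb from H3K27ac. Next came 3287 bp on chromosome 7 (128534903 to 128538189) and 3041 bp on chromosome 13 (21250770 to 21253810), both at the ceiling. The remaining 6 were on chromosomes 2 (3 peaks), 18 (2 peaks) and X, with scores from 774 to 2817. The 10 widest and the 10 highest-scoring members had 3 peaks in common, where ties at the ceiling were ordered by width.

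The 14 members at or above the ceiling were spread over 11 chromosomes. The 4 above it were a 1500 bp peak on chromosome 5 (130370963 to 130372462, score 3228), a 1441 bp peak on chromosome 10 (62187968 to 62189408, score 3217), a 2016 bp peak on chromosome 3 (122686198 to 122688213, score 3187) and a 1739 bp peak on chromosome 5 (36739125 to 36740863, score 3120). They differed in what surrounded them. The first lay 7.02 kb from an H3K27ac peak that scored 3176 and carried H3K4me3, and the gap between its flanking H3K27ac peaks was 19.8 kb. The second lay 9.89 kb from an H3K27ac peak scoring only 104, and its nearest H3K4me3 neighbour, 59.5 kb away, scored 60.64 and was also unacetylated. The third lay 57.6 kb from H3K27ac, between H3K27ac peaks 459 kb apart. The fourth had 10 H3K27ac peaks within 100 kb, the nearest at 9.99 kb with a score of 131.

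Of the 10 ceiling members tied at 3100, those on chromosomes 13, 7 and 13 are given above among the widest. The others were on chromosome 11 (83881074 to 83883184, 2111 bp), chromosome 12 (72931177 to 72933018, 1842 bp), chromosome 6 (114917936 to 114919750, 1815 bp), chromosome 1 (93390538 to 93392159, 1622 bp), chromosome 3 (107988529 to 107990005, 1477 bp), chromosome 15 (89421507 to 89422970, 1464 bp) and chromosome 14 (46703669 to 46704732, 1064 bp). Distance to H3K27ac ran from 0.970 to 425 kb across the 14. It was under 10 kb for 6 of them and over 100 kb for 2, on chromosomes 15 (114 kb) and 14 (425 kb). The chromosome 12 peak had its nearest H3K4me3 neighbour 238 kb away, an unacetylated peak scoring 101. The nearest H3K27ac peak carried H3K4me3 in 9 of the 14 cases and was itself at or above the ceiling in 3.

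Most members were neither beside acetylated chromatin nor deep inside territory without it. The median gap to the nearest H3K27ac peak was 29.1 kb (interval 24.5 to 33.2 kb, quartiles 10.7 and 65.6 kb). A gap of at most 1 kb was found for 14 members, of 1 to 10 kb for 87, of 10 to 100 kb for 260 and of over 100 kb for 63. On the farther side the next H3K27ac peak was at a median of 88.3 kb (79.3 to 103 kb). The stretch between both flanking H3K27ac peaks had a median length of 128 kb (116 to 146 kb) in 421 members with a flank on either side.

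Members lay farther from H3K27ac than acetylated peaks from 500 up to the ceiling did from their next, non-overlapped H3K27ac peak. For those acetylated peaks the median gap was 8.72 kb (8.17 to 9.39 kb). Both classes were chosen by H3K27ac overlap, and the overlapped peak was left out for the acetylated class. The contrast is therefore partly set by the selection and is not a like measure. Scores differed too, with medians below the ceiling of 932 (865 to 1004) for members and 1259 (1219 to 1305) for acetylated peaks. Within 10 kb of another H3K27ac peak were 23.8% of members (19.8 to 28.2%) and 54.0% of those acetylated peaks (52.1 to 56.0%). Counting H3K27ac peaks up to 100 kb to each side and leaving out overlapped ones, members had a median of 3 and the acetylated peaks of 6. No H3K27ac peak within 100 kb was recorded for 14.9% of members (11.6 to 18.6%) and 7.19% of those acetylated peaks (6.22 to 8.26%).

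The score of an unacetylated peak made less difference. Unacetylated peaks scoring below 500, the most similar class, had a median gap of 30.01 kb (27.6 to 32.4 kb) and 25.9% of them lay within 10 kb of H3K27ac (24.0 to 27.8%), so both intervals overlapped those of the members. At long range the classes separated, with a gap of over 100 kb for 14.9% of members (11.6 to 18.6%) and 21.3% of the low-scoring peaks (19.6 to 23.1%). A gap of over 500 kb was present for 5 of the 424 members and 95 of 2101 low-scoring peaks. Within the members, the Spearman correlation of score with gap was 0.00085 across 424 peaks. The median gap lay between 20.6 and 40.6 kb in all 7 score classes, with overlapping intervals.

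**Figure D2:**
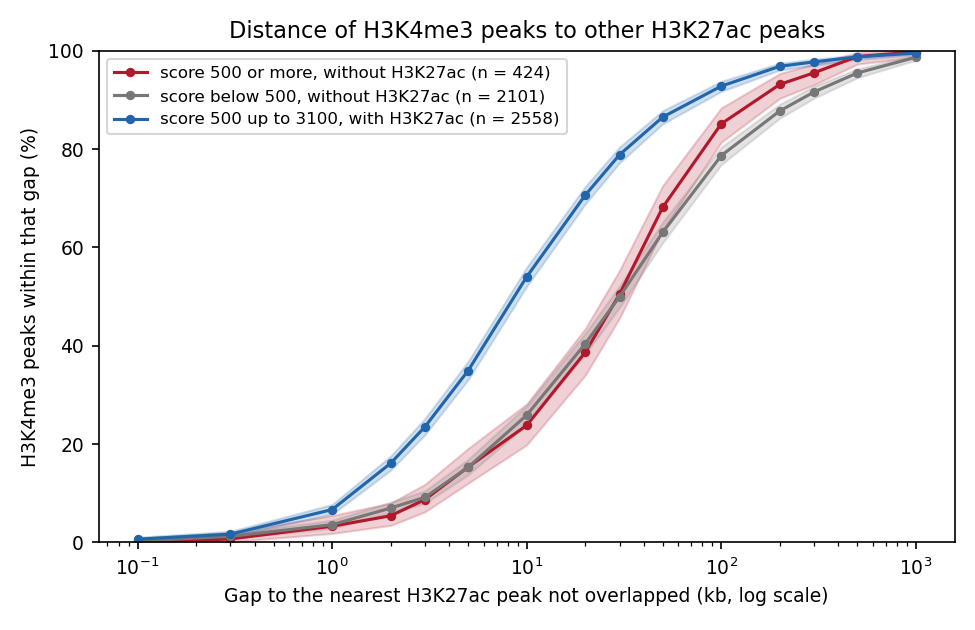
Percentage of H3K4me3 peaks (vertical axis) whose gap to the nearest non-overlapped H3K27ac peak is at most the distance on the horizontal axis (kb, log scale), for members (red), unacetylated peaks below 500 (grey) and acetylated peaks from 500 up to the ceiling (blue), with 95% binomial bands. At 10 kb the curves stand at 23.8%, 25.9% and 54.0%. At 100 kb the members reach 85.1%, between the 78.7% of the low-scoring and the 92.8% of the acetylated peaks. The overlapped H3K27ac peak is left out for the acetylated peaks, so their curve is partly set by the selection.

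**Figure D3:**
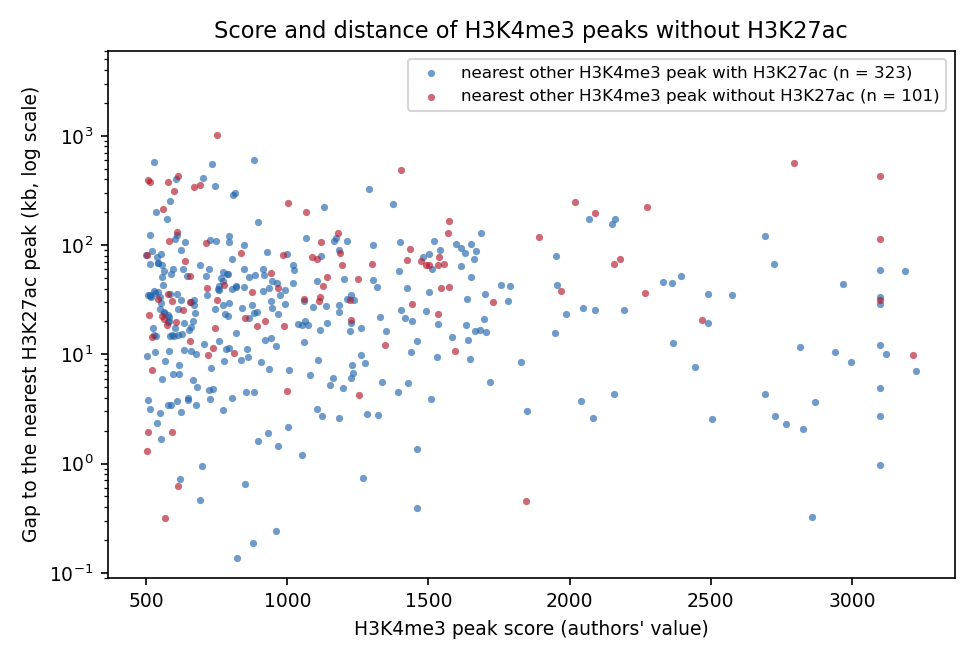
Each of the 424 members by its score (horizontal) and its gap to the nearest H3K27ac peak (vertical, kb, log scale), blue where the nearest other H3K4me3 peak carries H3K27ac (323 peaks) and red where it does not (101 peaks). Gaps under 10 kb and over 100 kb occur at both low and high scores, and the 10 members tied at 3100 form the vertical line at the right.

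The 63 members more than 100 kb from H3K27ac resembled the others in width and score. In 53 of them no other H3K4me3 peak lay within 100 kb, against 17 of the 260 members with gaps of 10 to 100 kb. Their median width of 1383 bp (1302 to 1485 bp) and median score of 895 (745 to 1179) were close to those of members with gaps of 10 to 100 kb, which had 1371 bp (1322 to 1448 bp) and 945 (866 to 1053). The count of neighbours is largely fixed by the choice of a gap over 100 kb, since 86.1% of all H3K4me3 peaks carry H3K27ac. The most distant member, 1284 bp on chromosome 14 (7588703 to 7589986, score 751), was 1016 kb from H3K27ac. It was followed by peaks on chromosome 1 (69733226 to 69734710, 595 kb, score 884), chromosome 14 (50681227 to 50682609, 570 kb, score 528), chromosome 5 (51943010 to 51944756, 558 kb, score 2794) and chromosome 12 (27153853 to 27155189, 550 kb, score 734). The other 5 of the 10 most distant lay at 402 to 488 kb, on chromosomes 8, 2, 14, 17 and 12. The chromosome 5 peak and the ceiling member on chromosome 14 (46703669 to 46704732) combined a high score with this isolation, while 6 of the 10 scored below 800.

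The most distant member, on chromosome 14, had no H3K27ac peak at all before it, and the stretch without H3K27ac after it ended at 8605659. Among stretches with an H3K27ac peak on either side, the longest around a member measured 3904 kb on chromosome 7 (59136431 to 63040048). It held a single H3K4me3 peak, the member at 59260420 to 59261611, with a width of 1192 bp and a score of 609. Being the only H3K4me3 peak between its flanking H3K27ac peaks was common. It applied to 282 of the 424 members (66.5%, 61.8 to 71.0%) and to 1349 of the 2101 low-scoring unacetylated peaks (64.2%, 62.1 to 66.3%). This is largely fixed by definition, since the 86.1% of H3K4me3 peaks that carry H3K27ac cannot lie wholly inside such a stretch.

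Most stretches that held a member held only 1. The 424 fell into 408 stretches free of H3K27ac, of which 395 held 1 member, 11 held 2 and 2 held more. Members made up only 2.34% of all H3K4me3 peaks, so few could fall together. Whether they grouped more or less than other peaks was not tested. On chromosome 13, 4 members lay within 58.2 kb (21313707 to 21371894), together with 3 lower-scoring H3K4me3 peaks in a 161 kb stretch. Their scores were 565, 1058, 2180 and 1088 and their widths 1114, 1673, 2119 and 1226 bp in order of position, so the highest-scoring was also the widest. Its neighbour to the right was 1.92 kb away. The ceiling member of 3041 bp described above (21250770 to 21253810) lay on the same chromosome, 59.9 kb before the first of them and separated from them by H3K27ac. On chromosome 11, 3 members spanned 62.2 kb (75779547 to 75841709) with no other H3K4me3 peak in a stretch of 294 kb. They scored 1503, 541 and 1253, with widths of 1412, 1111 and 1378 bp, and were spaced 31.9 and 26.3 kb apart. The 11 pairs were measured from the start of the first member to the end of the second. The shortest span was 4.43 kb on chromosome X (130222648 to 130227074), with a gap of 1.30 kb between the members. The longest was 1143 kb on chromosome 2 (136940332 to 138083469), with a gap of 1139 kb.

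The closest neighbourhoods show 2 arrangements. Of the 14 members within 1 kb of H3K27ac, 9 also had another H3K4me3 peak within 1 kb, and the nearest H3K27ac peak carried H3K4me3 in 11. The nearest example, 952 bp wide on chromosome 8 (108860955 to 108861906, score 823), was 138 bp from an H3K27ac peak at 3100 and 229 bp from an H3K4me3 peak scoring 2090 that carried H3K27ac. The member on chromosome 6 (51128692 to 51129561, 870 bp, score 879) lay 189 bp from an H3K27ac peak at 3100 and 268 bp from an H3K4me3 peak at 3100. These members are H3K4me3 called as a separate peak next to an acetylated one. Others near H3K27ac stood alone, such as the 878 bp peak on chromosome 1 (163125498 to 163126375, score 568), 320 bp from an H3K27ac peak without H3K4me3 and 11.6 kb from the next H3K4me3 peak. A further 2087 bp peak on chromosome 4 (140856740 to 140858826, score 1846), 456 bp from H3K27ac and 27.4 kb from H3K4me3, belongs with these and was chosen after its values were seen.

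Some members had a close H3K4me3 neighbour that was unacetylated too. Of the 20 members with another H3K4me3 peak within 1 kb, 10 had an acetylated and 10 an unacetylated neighbour. On chromosome 14, members at 58690110 to 58691681 (score 1474) and 58693297 to 58695536 (score 1104) stood on either side of a peak scoring 107, at 768 and 31 bp from it, in a stretch of 1201 kb without H3K27ac. This pair was also singled out after its values were seen. When H3K4me3 peaks within 1000 bp were joined before the selection, 412 regions of median width 1379 bp (1338 to 1434 bp) were unacetylated. This is a net count, because members joined to an unacetylated neighbour stay in the class.

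The H3K4me3 peak nearest to a member was acetylated in most cases. The share was below the 86.1% of all H3K4me3 peaks that carry H3K27ac. It was also below that beside acetylated peaks from 500 up to the ceiling, with intervals that did not overlap. The nearest other H3K4me3 peak carried H3K27ac for 323 of 424 members (76.2%, 71.8 to 80.2%) and for 88.7% (87.5 to 89.9%) of those acetylated peaks. For unacetylated peaks below 500 the share was 75.8% (73.9 to 77.6%), which the members' interval includes. In the 7 score classes the members' share ran from 71.4 to 82.3% and that of the acetylated peaks from 86.8 to 91.5%. The intervals of the 2 kinds were apart in the classes of 500 to 600, 600 to 800 and 1000 to 1500 and overlapped in the other 4. No test between samples is possible with 1 library per mark, and neighbouring peaks share a library and a region. An acetylated peak can also lie under the same H3K27ac peak as its neighbour, which the rule forbids for a member. Part of the difference between the 2 kinds is therefore built in.

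**Figure D4:**
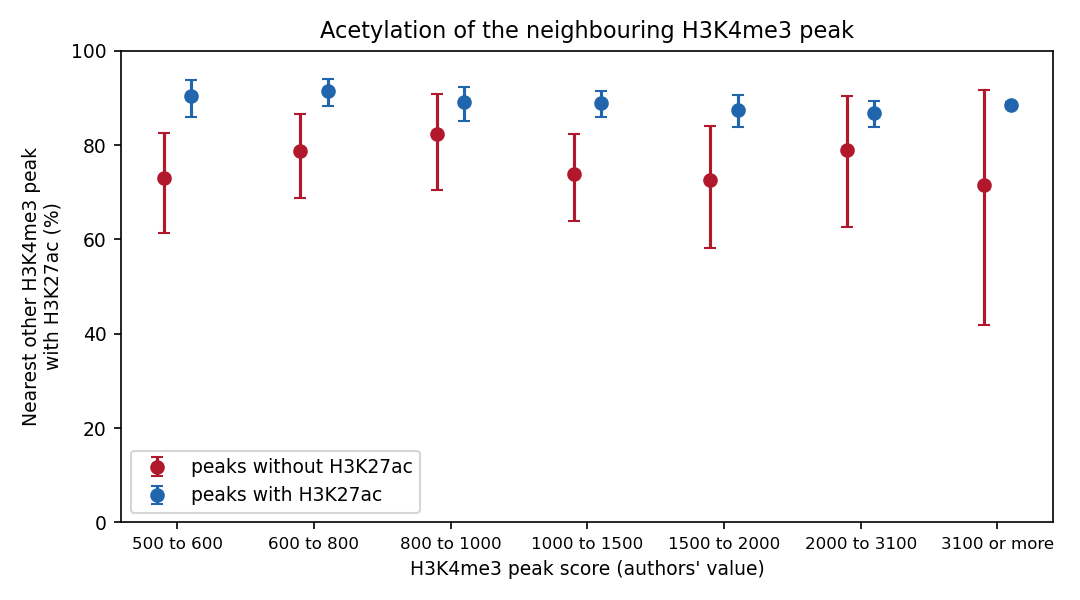
Percentage of H3K4me3 peaks whose nearest other H3K4me3 peak carries H3K27ac, for peaks without (red) and with (blue) H3K27ac of their own, in 7 score classes. Bars are exact 95% binomial intervals; the red points lie at 71.4 to 82.3% and the blue points at 86.8 to 91.5%.

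The shares also varied with the distance to the neighbour. With a neighbour within 10 kb, it was acetylated for 71 of 106 members (67.0%, 57.2 to 75.8%) and 1016 of 1132 acetylated peaks (89.8%, 87.8 to 91.5%). With a neighbour at 10 to 100 kb the shares were 80.0% (74.4 to 84.8%) and 89.3% (87.4 to 91.0%). Beyond 100 kb they were 76.7% (65.4 to 85.8%) and 82.0% (76.9 to 86.4%), with overlapping intervals. For low-scoring unacetylated peaks the shares at the 3 distances were 65.5, 80.8 and 77.5%, close to those of the members. The change of these differences with distance was not tested. A shared H3K27ac peak can cover an acetylated peak and a close neighbour, but never a member, so the short-range difference is partly built in.

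By type, the nearest H3K4me3 neighbour of a member was an acetylated peak of 500 or more in 257 cases (60.6%), a type that made up 64.3% of all H3K4me3 peaks. It was a low-scoring acetylated peak in 66 (15.6%, against 21.8% of all) and a low-scoring unacetylated peak in 86 (20.3%, against 11.6% of all). Another member was nearest in 15 cases (3.54%, interval 1.99 to 5.77%), near the 2.34% that members made up of all peaks. Members had a median gap of 28.5 kb (24.8 to 34.6 kb) to that neighbour, compared with 12.9 kb (11.9 to 13.7 kb) for acetylated peaks from 500 up to the ceiling. The low-scoring unacetylated peaks had 28.8 kb (26.4 to 31.1 kb), so the wider spacing was shared by unacetylated peaks of either score. It is not separate from the gap to H3K27ac, since most of these neighbours carried that mark.

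For most members the nearest H3K27ac peak was a place with both marks. It carried H3K4me3 for 290 of 424 members (68.4%, 63.7 to 72.8%), against 56.1% (54.1 to 58.0%) for the next H3K27ac peak of acetylated peaks from 500 up to the ceiling and 52.3% of all 29468 H3K27ac peaks. For acetylated peaks the overlapped H3K27ac peak, which carries H3K4me3 by definition, was left out. Their share is therefore partly set by the selection and is not a like measure. For low-scoring unacetylated peaks, where nothing was left out, it was 69.2% (67.2 to 71.2%). Where the nearest H3K27ac peak carried H3K4me3, it lay at a median of 26.2 kb (21.6 to 31.3 kb) and had a median score of 1494. In the 134 cases without H3K4me3 these values were 34.7 kb (26.7 to 42.0 kb) and 140. The members themselves were alike in the 2 cases, with median widths of 1366 bp (1314 to 1432 bp) and 1381 bp (1321 to 1454 bp) and medians of 947 (865 to 1058) and 991 (848 to 1128) for the score.

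Members were found on every autosome and on X. There were 409 on autosomes, 14 on X and 1 on a contig that mm9 does not place. As a share of H3K4me3 peaks of 500 or more, they made up between 2.29% on chromosome 19 (10 of 437, 1.10 to 4.17%) and 4.84% on chromosome 13 (25 of 517, 3.15 to 7.06%). Chromosomes 2 and 11 had the most, 41 and 40. The interval of each of the 20 chromosomes included the overall 3.51%, so no chromosome stood apart at these counts.

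On X the share of unacetylated peaks was 3.85% (2.12 to 6.37%). The 14 members on X had a median gap to H3K27ac of 97.3 kb (15.8 to 202 kb), against 28.3 kb (23.9 to 32.0 kb) for the 409 on autosomes, and these intervals overlapped. More than 100 kb from H3K27ac were 7 of the 14 on X (50%, 23.0 to 77.0%) and 56 of the 409 on autosomes (13.7%, 10.5 to 17.4%), and these intervals did not overlap. The same share was not computed for the other H3K4me3 peaks on X, so it cannot be read as particular to the members. Width was similar, with medians of 1492 bp (881 to 1846 bp) on X and 1370 bp (1327 to 1412 bp) on autosomes. The highest score on X was 1373, so no member there reached the ceiling.

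**Figure D5:**
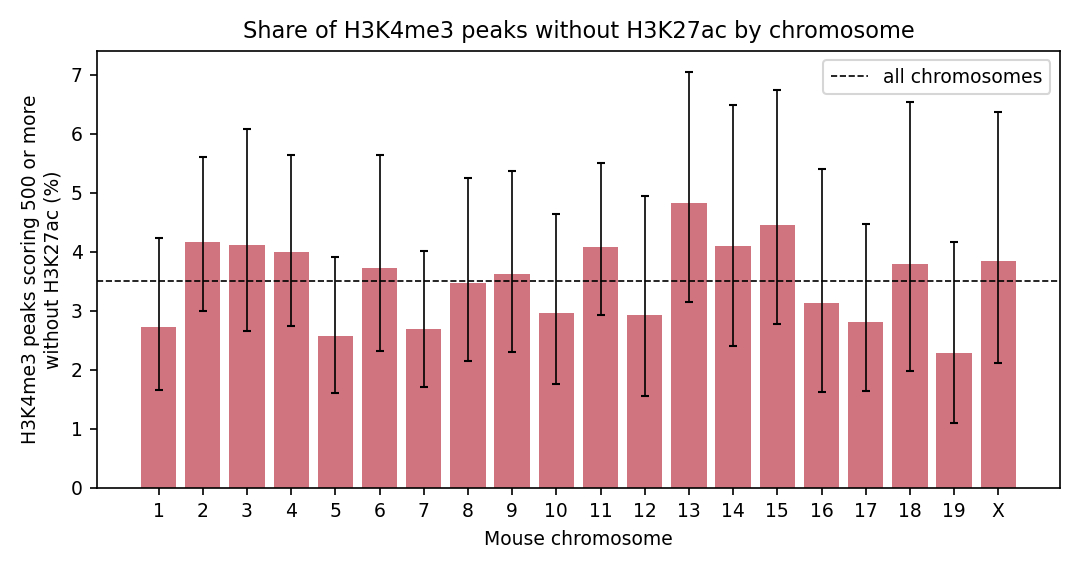
Members as a percentage of the H3K4me3 peaks scoring 500 or more on each mouse chromosome, with exact 95% binomial intervals as bars and the overall 3.51% as a dashed line. Values run from 2.29% on chromosome 19 to 4.84% on chromosome 13, and every interval crosses the line.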

How the data were processed

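Chromatin immunoprecipitation and sequencing gave 1 library each for H3K27ac, H3K4me3 and control IgG, grouped by sample title. Peak calling used MACS on mouse build mm9, per the submitters' processing notes; the version, aligner, filters and depth are not stated in those sources. Each peak has a deposited score, the authors' own value, which no header or label defines, and it was used only to rank or filter peaks within a list. The lowest was 50.01 in both lists, and many were tied at 3100. The labels give 11% formaldehyde for cross-linking, without saying whether this was a final concentration.

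Overlap was at least 1 shared bp, and gaps are the bases between peak ends. Percentages carry exact Clopper-Pearson and medians order-statistic 95% intervals. No p-value is given, because there was 1 library per mark. Genes, markers of the cell type, gene lists and sequences were left out, since the reference tables at hand follow another build, GRCm38.p6. The members and comparison classes were chosen with earlier results of these data known. Peaks were named by position under a rule: the 10 highest-scoring, 10 widest, 10 farthest from and 5 nearest to H3K27ac, those at each limit, and stretches with 3 or more members; exceptions are stated. Alternatives covered score limits, the H3K27ac list, gaps, joined peaks and autosomes. Overlap and gap calls were tested on simulated data, and the member count was the same with bedtools 2.31.1. The software was SciPy 1.17.1, NumPy 2.4.6, pandas 2.3.3 and Matplotlib 3.10.9 under Python 3.11.15.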

Additional observations from a re-analysis of the deposited data

How the results depend on the processing

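Of 42 alternative values for 6 results, 30 fell inside the 95% interval of the value in the report (counts: within 1.5 times) and 12 moved outside it. A score limit of 300 gave 669 members, 5.09% of H3K4me3 peaks above the limit, and a median width of 1253 bp. A limit of 1000 gave 199 members, 1.83% and 1529 bp, as follows from width increasing with score. With only H3K27ac scores of at least 100 there were 666 members (5.51%). With the H3K27ac list cut to 18142 peaks there were 1375 (11.4%), of median width 1456 bp, and the nearest other H3K4me3 peak carried H3K27ac for 63.0%; a shorter list leaves more peaks unacetylated by construction. The median gap to H3K27ac stayed within its interval under all 7 alternatives, as did the share within 10 kb. Counting gaps of up to 1000 bp as overlap, joining H3K4me3 peaks and keeping autosomes only moved none of the 6 results outside the interval. No paired analysis was possible because each mark had 1 library. Depth is unknown, so an H3K27ac peak missed for lack of reads cannot be told apart from absent acetylation.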
